A study of Mus musculus with 13 samples.

Results

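Interferon response genes are the genes that cells switch on when interferon, the cytokine of antiviral defence, binds its receptors. A list of 47 such genes was taken by symbol from the deposited adrenal RNA-seq tables. The reads of those transcript models of a gene that were listed for every group were added up. All 47 were listed in every table and all 47 were tested, among 14078 genes. The tissue was adrenal gland of C57BL/6 mice in which TAM was given to remove Star, the gene of the protein that carries cholesterol into mitochondria for steroid synthesis. The title places the work in the study of lipoid congenital adrenal hyperplasia, the disease caused by loss of this protein.

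The 13 libraries form 3 groups. The before group has 5 libraries of adrenal gland taken before TAM, the 24 h group has 4 taken 24 hours after TAM, and the 8-week group has 4 taken 8 weeks after TAM. All groups share the C57BL/6 strain and the tissue. The age and sex of the mice, the driver of the recombination and the cells in which it acts are not given in the sources used here. The labels do not say that each library is a separate mouse, and the p-values then reflect spread that may be technical. No group received TAM without the deletion among the samples analysed here, so effects of TAM, of time and of the deletion cannot be told apart.

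Type I interferons signal through the receptor pair Ifnar1 and Ifnar2, the kinases Jak1 and Tyk2, and a complex that holds Stat2 and Irf9 and binds the interferon-stimulated response element (ISRE). Interferon gamma signals through Ifngr1 and Ifngr2 to the gamma-activated site (GAS). The induced genes sense viral nucleic acid (Ddx58, Ifih1, Zbp1), degrade or block viral RNA (the OAS and IFIT families), tag proteins with the ubiquitin-like Isg15, and load peptides on MHC class I (Psmb8, Psmb9, Tap1). Many also raise the response itself, as Irf7 does, or damp it, as Usp18 does.

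The promoters of these genes carry the letters by which the family is usually recognised, so a few are shown first. RefSeq promoter windows (GRCm38.p6, the build of the files, 250 bases before to 50 after a start site) were found for 38 of the 47 genes, in 48 windows. The 9 without one are Oas2, Mx1, Mx2, Zbp1, Dhx58, Rtp4, Parp9, Parp14 and Usp18. The ISRE core was searched on both strands as GAAA, any 2 bases, GAAA, and the GAS as TTCNNNGAA, whose pattern is its own reverse complement. The stretches below are the 54 bases around an ISRE match in 6 of the genes, given 5′ to 3′ in the direction of the gene, with each ISRE match in capitals. Those of Isg15, Ifit1, Oas1a, Bst2 and Gbp3 belong to genes that rose at 24 h, and that of Stat2 to a gene that fell at 8 weeks.
Isg15: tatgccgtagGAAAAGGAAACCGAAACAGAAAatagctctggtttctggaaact
Ifit1: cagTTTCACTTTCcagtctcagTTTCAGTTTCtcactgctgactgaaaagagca
Oas1a: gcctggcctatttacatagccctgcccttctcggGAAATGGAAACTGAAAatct
Bst2: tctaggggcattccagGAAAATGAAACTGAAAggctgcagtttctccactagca
Gbp3: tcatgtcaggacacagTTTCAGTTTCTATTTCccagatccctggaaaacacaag
Stat2: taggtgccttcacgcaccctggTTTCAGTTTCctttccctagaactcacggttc

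The stretch of Isg15 is chr4:156200853-156200906 on the minus strand, and its capitals are 3 overlapping matches, the last beginning 66 bases before the start site. The stretch of Ifit1 is chr19:34640782-34640835 on the plus strand, with 2 separate matches in the reverse form. The Oas1a stretch (chr5:120907526-120907579, minus strand) ends close to the start site, and the Gbp3 stretch (chr3:142559983-142560036, plus strand) holds overlapping matches in the reverse form. The Bst2 stretch (chr8:71537565-71537618, minus strand) also holds a GAS match that overlaps its first ISRE match. The Stat2 stretch is chr10:128270254-128270307 on the plus strand, with its match 222 bases before the start site.

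An ISRE match was present in 15 of the 38 genes with a window, or 39.5%, against 3.99% of the 27025 genes in the table (33.3% of member windows and 3.44% of all windows). A GAS match was present in 10 of 38 genes, or 26.3%, against 9.55% of all genes (20.8% and 8.30% of windows). Of the 24 genes with a window that rose at 24 h, 10 held an ISRE match, and of the 7 with a window that fell at 8 weeks, 3 did (Ddx58, Eif2ak2 and Stat2). Ifih1 and Rsad2, which were called in neither of these ways, also hold one. The letters are therefore found both among genes that rose at 24 h and among genes that fell at 8 weeks, and a match is a description of the sequence, not a measured binding site.

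**Figure D1:**
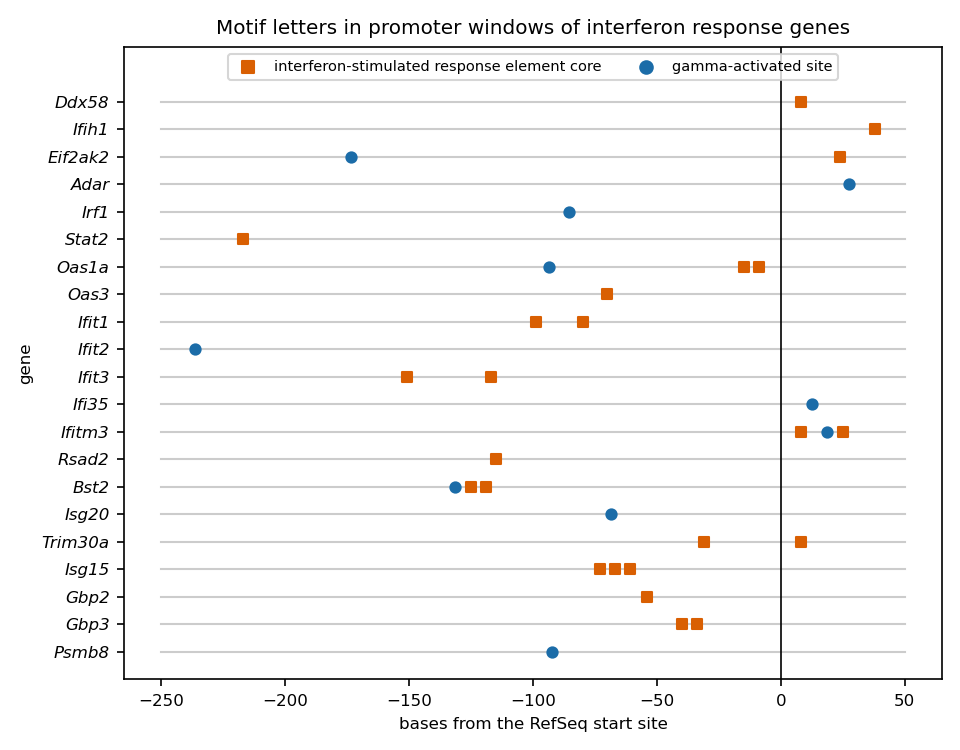
Position of ISRE and GAS matches in the promoter windows of the members that hold either, with genes on the vertical axis and bases from the RefSeq start site on the horizontal axis. Each orange square is 1 of the ISRE matches and each blue circle 1 of the GAS matches, drawn at its middle. Isg15 has 3 ISRE matches in a row upstream of its start, while those of Ddx58, Ifih1, Eif2ak2 and Ifitm3 lie after the start site.

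Levels below are FPKM (fragments scaled by transcript length and by library total) as deposited, summed over the models of a gene listed for every group. A gene is called when its adjusted p is under 0.05 in edgeR's quasi-likelihood test on the rounded expected counts, with Benjamini-Hochberg adjustment over all 14078 genes, and "rose" and "fell" are used of called genes. Listed reads ran from 17331673 to 27309429 per library, of which the members held 35560 to 111039. Star itself, summed over its models, stood at 3207 to 4239 FPKM before TAM, at 17.4 to 626 FPKM at 24 h and at 85.9 to 201.6 FPKM at 8 weeks. Within the 24 h group, replicate 4 stood highest in 35 of the 47 genes and replicate 3 lowest in 25. Replicate 3 also stood apart in its tissue markers, with the lowest cortex sum of its group (4355 FPKM) and the lowest medulla (19.4 FPKM) and fat (50.9 FPKM) sums of all 13 libraries.

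At 24 h most interferon response genes were higher than before TAM. Of the 47, 32 rose and 1 fell, Trim25, where 12.6% of all genes rose and 6.63% fell (19.2% in either direction). The median log2 fold change of the 47 was 1.11 (all genes 0.03), and 43 of the 47 were above 0. In 25 of the 47 every 24 h library lay above every before library on the scale of normalised counts, a state that 9.57% of all genes reached. The largest changes were those of Mx1 (8.23-fold), Oas3 (7.80-fold), Oasl1 (5.97-fold), Ifit2 (5.11-fold) and Irf7 (4.64-fold). Irf7 encodes the transcription factor that drives interferon production, and the others belong to antiviral gene families. Without 24 h replicate 4, 24 of the 47 rose, the lowest number in any fit that left out 1 library (10.2% of all genes rose). Without 24 h replicates 3 and 4 together 28 rose and 2 fell, with a median log2 of 0.89. In that fit 12.6% of all genes rose and 8.38% fell. In tissue with several cell types, fewer cells of a type and less RNA per cell cannot be told apart.

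At 8 weeks, members were called in both directions against before, at shares close to those of all genes. Of the 47, 12 were higher and 8 lower than before TAM, where 20.5% of all genes were higher and 16.4% lower (36.9% in either direction). The median log2 fold change was 0.40 (all genes 0.03), and 30 of the 47 were above 0. In 13 of the 47 every 8-week library lay above every before library (23.2% of all genes), and in 6 every one lay below (21.1% of all genes), namely Ddx58, Dhx58, Trim25, Eif2ak2, Cmpk2 and Herc6. The share called higher at 8 weeks, 25.5%, and the share called lower are both close to those of all genes. Members with every 8-week library below every before library were a smaller share than over all genes. Without 24 h replicates 3 and 4, which enter the common estimate of spread, 17 were higher and 9 lower. In that fit 28% of all genes were higher and 26.4% lower.

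Compared directly, 25 of the 47 were lower at 8 weeks than at 24 h and 1, Psmb9, was higher, where 10.6% of all genes were lower and 10.1% higher (20.8% in either direction). The median log2 difference was −0.83 (all genes −0.03). In 25 genes every 8-week library lay below every 24 h library (9.76% of all genes). The mean level at 8 weeks lay between those of before and 24 h in 23 of the 47 (48.9%, and 25% of all genes), lay below that of 24 h in 40 (85.1%, and 51.7% of all genes) and lay below that of before in 17 (36.2%, and 48.2% of all genes). Without 24 h replicates 3 and 4, 20 of the 47 were lower at 8 weeks and 0 higher by edgeR (12.8% and 8.51% of all genes in that fit). The 3 comparisons share libraries, so their values are set side by side for each gene below and no overlap between them is counted.

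**Figure D2:**
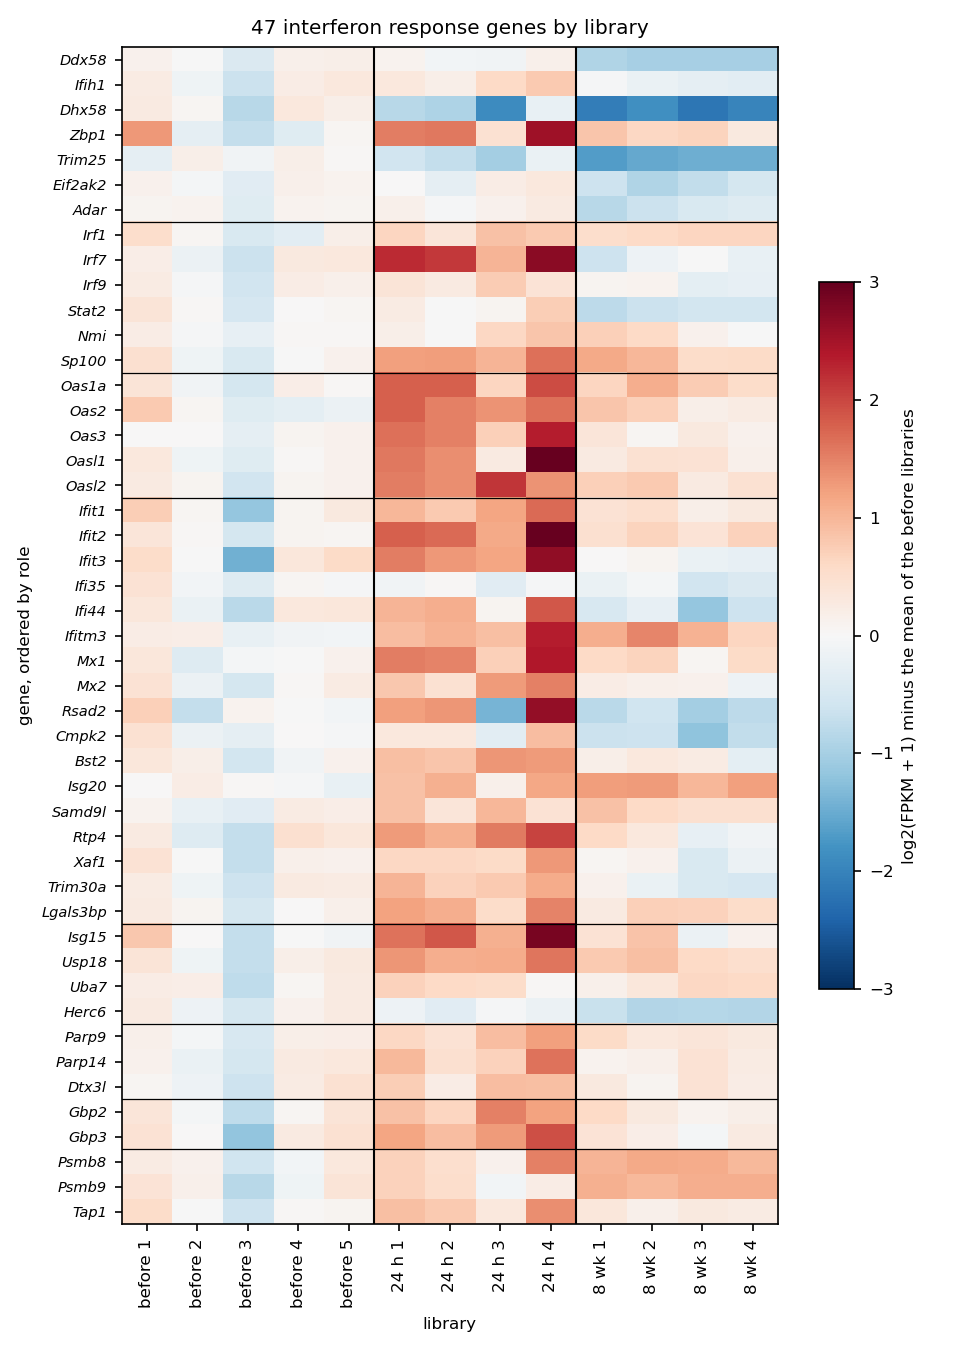
Level of each of the 47 genes in each of the 13 libraries, as log2(FPKM + 1) minus the mean of the before libraries, with libraries on the horizontal axis and genes, ordered by role, on the vertical axis. Red is higher and blue lower than before. The 24 h block is mostly red, with replicate 4 the deepest in 35 genes, and the 8-week block is paler, with the deepest blue in the rows of Dhx58, Trim25 and Ddx58 and the deepest red in those of Isg20, Ifitm3, Psmb8 and Psmb9.

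The OAS family is named after its synthetases, which make 2′,5′-linked oligoadenylates that activate the RNase L nuclease. All 5 members rose at 24 h (12.6% of all genes). At 8 weeks 2 were higher than before (20.5% of all genes) and 4 were lower than at 24 h (10.6%). Oasl2 (chromosome 5, 114896934 to 114912245) had the smallest p of the family at 24 h. Its levels were 17.0, 14.7, 8.97, 14.8 and 15.4 FPKM before TAM, 42.1, 38.1, 64.3 and 36.8 at 24 h, and 23.3, 24.8, 17.0 and 19.3 at 8 weeks. The 24 h libraries lay above all others, and the 8-week libraries lay just above the highest before library. Oasl2 rose at 24 h by log2 1.69 (SE 0.18, adjusted p = 0.00016) and was higher at 8 weeks than before by 0.71 (SE 0.18, adjusted p = 0.0082), with a difference of −0.98 (SE 0.19, adjusted p = 0.0068) from 24 h to 8 weeks.

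Oas3, a large synthetase of the family, was at 0.526, 0.525, 0.251, 0.591 and 0.651 FPKM before TAM, at 3.69, 3.32, 1.47 and 6.72 FPKM at 24 h, and at 0.929, 0.574, 0.826 and 0.654 FPKM at 8 weeks. It rose at 24 h by log2 2.96 (SE 0.42, adjusted p = 0.00055) and was lower at 8 weeks than at 24 h by log2 −2.26 (SE 0.44, adjusted p = 0.0073). The 8-week and before libraries overlapped, and their difference (log2 0.71, SE 0.41) had an adjusted p of 0.19. Oas1a, a synthetase with close copies such as Oas1g that can share its reads, had 5.58 ± 1.49 (SD, n = 5), 19.0 ± 6.71 (SD, n = 4) and 10.03 ± 1.89 FPKM (SD, n = 4) in the order before, 24 h and 8 weeks. It was called higher at both times (adjusted p = 0.0011 and 0.019), and the later call was lost without 8-week replicate 2 (adjusted p = 0.054).

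Oas2 (chromosome 5, 120730333 to 120749848) lies 3249 bases from Oas3. It stood at 4.55, 2.32, 1.49, 1.60 and 1.82 FPKM before TAM, at 10.02, 8.12, 7.11 and 9.15 FPKM at 24 h, and at 4.67, 4.29, 2.62 and 2.78 FPKM at 8 weeks. Before replicate 1 stood apart from the other before libraries, at the level of the higher 8-week libraries. Oasl1, which is known to damp translation of Irf7, ranged from 0.873 to 1.99 FPKM before TAM and from 1.66 to 2.27 FPKM at 8 weeks, and its 24 h libraries were 6.16, 5.28, 1.89 and 18.9 FPKM. Its 24 h group therefore spanned a wide range, with replicate 3 inside the before range. The fall of Oas2 from 24 h to 8 weeks (log2 −1.17, adjusted p = 0.029) was lost without 24 h replicate 1 or any of the 8-week replicates 2, 3 and 4 (adjusted p up to 0.072). That of Oasl1 (log2 −1.94, adjusted p = 0.030) was lost without 24 h replicate 4 or any 1 of the 8-week libraries (adjusted p up to 0.083).

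Antiviral effectors formed the largest group, with 17 genes, of which 14 rose and 0 fell at 24 h by edgeR (15 at an unadjusted p under 0.05 in either direction). Over all genes 12.6% rose and 6.63% fell at 24 h. At 8 weeks 4 effectors were higher and 1 lower than before (20.5% and 16.4% of all genes). The share higher, 23.5%, was near that of all genes. Against 24 h, 11 were lower at 8 weeks (10.6% of all genes). Ifit2 binds RNA and restrains viral translation. Its levels were 5.73, 4.41, 2.65, 4.60 and 4.48 FPKM before TAM, 17.2, 16.0, 10.6 and 41.6 FPKM at 24 h, and 6.41, 7.38, 6.06 and 7.46 FPKM at 8 weeks. All 24 h libraries lay above the rest, and the 8-week libraries lay just above the before libraries. Ifit2 rose at 24 h by log2 2.35 (SE 0.36, adjusted p = 0.00077), and at 8 weeks it was lower than at 24 h by log2 −1.58 (SE 0.37, adjusted p = 0.015). Against before it was not called at 8 weeks (log2 0.78, SE 0.35, adjusted p = 0.098).

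Bst2, or tetherin, holds budding virus at the cell surface. It stood at 86.0, 75.9, 45.9, 62.3 and 73.9 FPKM before TAM, at 127.0, 120.3, 171 and 165 FPKM at 24 h, and at 76.1, 83.5, 80.6 and 54.8 FPKM at 8 weeks. The 8-week libraries lay within the before range and below every 24 h library. Bst2 rose 2.16-fold at 24 h (log2 1.11, SE 0.19, adjusted p = 0.0017) and was lower at 8 weeks than at 24 h (log2 −0.87, SE 0.20, adjusted p = 0.014). Both calls held in each alternative fit run.

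Mx1, a gene of the dynamin-like GTPase family, was low before TAM, at 0.807, 0.0991, 0.370, 0.419 and 0.556 FPKM. It reached 3.14, 3.02, 1.35 and 6.63 FPKM at 24 h and stood at 1.15, 1.28, 0.489 and 1.13 FPKM at 8 weeks. The log2 fold change of 3.04 (SE 0.56, adjusted p = 0.0026) at 24 h was the largest of the 47 and had one of the largest standard errors. The lower level at 8 weeks than at 24 h (log2 −1.76, SE 0.58, adjusted p = 0.048) was lost in 10 of 13 fits that left out 1 library, all but those without before replicate 1 or 2 or 24 h replicate 3 (adjusted p up to 0.12).

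Rtp4, a chaperone of membrane receptors that is induced by interferon, had 14.01 ± 4.92 FPKM (SD, n = 5) before TAM, 40.3 ± 12.5 (SD, n = 4) at 24 h and 15.2 ± 4.44 (SD, n = 4) at 8 weeks. It rose 2.95-fold at 24 h (adjusted p = 0.0028), was lower at 8 weeks than at 24 h (log2 −1.32, SE 0.31, adjusted p = 0.015) and was not called at 8 weeks against before (adjusted p = 0.54). Lgals3bp, a secreted galectin-binding glycoprotein, stood at 111.7, 97.1, 63.8, 93.8 and 103.5 FPKM before TAM, at 215, 197, 135 and 261 FPKM at 24 h, and at 111.7, 152.8, 148.6 and 135.8 FPKM at 8 weeks. It rose at 24 h (log2 1.15, SE 0.22, adjusted p = 0.0034) and was higher than before at 8 weeks as well (log2 0.69, SE 0.22, adjusted p = 0.027). The later call was lost without any of before replicates 2 to 5 or 8-week replicates 2 and 3 (adjusted p up to 0.078).

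Among the other 12 effectors, log2 fold changes at 24 h ran from −0.10 for Ifi35 to 1.74 for Ifit3. Ifi44, Ifit1, Ifit3, Ifitm3, Isg20, Mx2, Samd9l, Trim30a and Xaf1 rose at 24 h, while Cmpk2, Ifi35 and Rsad2 were not called. Without 24 h replicate 4 the calls of Ifi44 (adjusted p = 0.12), Ifit1 (0.069) and Xaf1 (0.088) were lost. Without before replicate 2 those of Ifi44 (0.072) and Xaf1 (0.056) were lost, and that of Ifi44 also without before replicate 3 (0.062) or 24 h replicate 2 (0.052). Rsad2, or viperin, which makes a chain-terminating nucleotide, spanned 5.65 to 107 FPKM within the 24 h group and 9.74 to 27.7 FPKM before TAM. Of this group Isg20, an RNA exonuclease, was singled out after its values were seen because it did not return toward the before level. It stood at 2.69 ± 0.401 FPKM (SD, n = 5) before TAM, 5.69 ± 1.84 (SD, n = 4) at 24 h and 7.40 ± 0.705 (SD, n = 4) at 8 weeks (log2 1.58, SE 0.27, adjusted p = 0.00068 against before). Its level did not differ beyond the threshold between 24 h and 8 weeks (log2 0.47, SE 0.28, adjusted p = 0.24). Samd9l was likewise higher at 8 weeks than before (log2 0.82, SE 0.17, adjusted p = 0.0029). It did not differ from 24 h beyond the threshold (log2 0.05, SE 0.18, adjusted p = 0.88). Ifitm3 was also higher at 8 weeks (log2 1.22, SE 0.31, adjusted p = 0.0078), with no call against 24 h (log2 −0.28, SE 0.32, adjusted p = 0.55). Ifit3, Ifitm3, Mx2, Trim30a and Samd9l belong to gene families, and where a close copy exists in the mouse genome their values carry the uncertainty of shared reads.

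**Figure D3:**
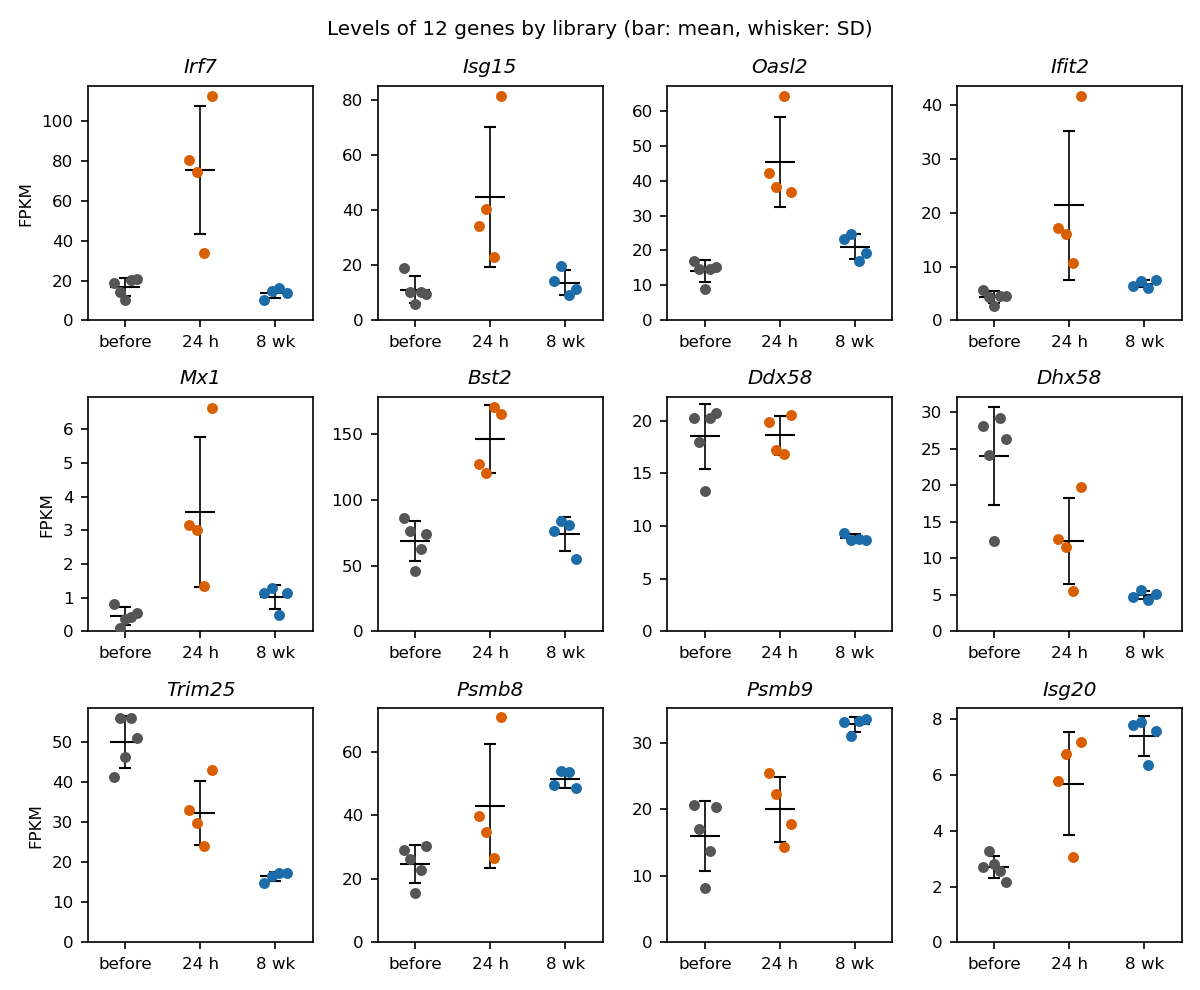
FPKM of 12 genes by group, with 1 point per library, a bar at the mean and whiskers of 1 SD (n = 5 before, 4 at 24 h and 4 at 8 weeks). Each panel starts at 0 and has its own scale. Irf7, Isg15, Oasl2, Ifit2, Mx1 and Bst2 are high at 24 h only or mainly, Ddx58, Dhx58 and Trim25 are lowest at 8 weeks, and Psmb8, Psmb9 and Isg20 have their highest means at 8 weeks.

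Isg15 is a ubiquitin-like protein that Uba7 activates, Herc6 attaches and Usp18 removes. Of these 4 genes 2 rose at 24 h, Isg15 and Usp18 (12.6% of all genes rose). Isg15 (chromosome 4, 156199424 to 156200818) stood at 19.2, 10.5, 5.97, 10.4 and 9.73 FPKM before TAM, at 34.4, 40.6, 23.1 and 81.4 FPKM at 24 h, and at 14.5, 19.6, 9.17 and 11.5 FPKM at 8 weeks. The 24 h libraries lay above all others, 3 of the 4 8-week libraries lay within the before range, and 8-week replicate 2 lay just above it. Isg15 rose 4.20-fold at 24 h (log2 2.07, SE 0.40, adjusted p = 0.0033) and was lower at 8 weeks than at 24 h (log2 −1.65, SE 0.42, adjusted p = 0.019).

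Usp18, the protease that also blocks the type I receptor, was at 6.07, 3.97, 2.29, 5.12 and 5.60 FPKM before TAM, at 12.6, 10.6, 10.7 and 15.4 FPKM at 24 h, and at 8.28, 9.19, 7.21 and 6.74 FPKM at 8 weeks. The 3 groups did not overlap, in the order before, 8 weeks and 24 h. Usp18 rose at 24 h (log2 1.46, SE 0.25, adjusted p = 0.0018) and was higher than before at 8 weeks (log2 0.91, SE 0.25, adjusted p = 0.014), with no call between 24 h and 8 weeks (log2 −0.55, SE 0.27, adjusted p = 0.15). Herc6, the ligase, had 9.11 ± 2.20 FPKM (SD, n = 5) before TAM, 7.74 ± 0.753 (SD, n = 4) at 24 h and 4.62 ± 0.432 (SD, n = 4) at 8 weeks. It fell at 8 weeks against before (log2 −0.84, SE 0.17, adjusted p = 0.0023) and was lower than at 24 h (log2 −0.63, SE 0.18, adjusted p = 0.028), the latter lost without 8-week replicate 2 or 4 (adjusted p up to 0.073). At 8 weeks against before, 1 of the 4 genes was thus higher, the remover, and 1 lower, the ligase. Over all genes 20.5% were higher and 16.4% lower, so these counts are near the shares of all genes. Uba7 (log2 0.60, SE 0.23, adjusted p = 0.056) was not called.

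The transcription factors and their partners include Irf7, Irf1, Irf9, Stat2, the nuclear body protein Sp100 and the STAT partner Nmi. Of the 6, 3 rose at 24 h (12.6% of all genes). At 8 weeks 2 were higher and 1 lower than before (20.5% and 16.4% of all genes). Against 24 h, 2 were lower at 8 weeks (10.6% of all genes). Irf7 (chromosome 7, 141263183 to 141266424) stood at 19.0, 14.3, 10.1, 20.2 and 20.7 FPKM before TAM, at 80.7, 74.6, 34.0 and 112.4 FPKM at 24 h, and at 10.3, 14.5, 16.2 and 13.7 FPKM at 8 weeks. The 24 h libraries did not overlap the others, and the 8-week libraries lay inside the before range. Irf7 rose by log2 2.21 (SE 0.32, adjusted p = 0.00064) at 24 h and was not called at 8 weeks (log2 −0.15, SE 0.32, adjusted p = 0.75). Its difference was −2.36 (SE 0.35, adjusted p = 0.0022) from 24 h to 8 weeks, one of the 2 largest falls among the 47.

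Sp100 was at 20.7, 13.2, 10.3, 14.5 and 16.0 FPKM before TAM, at 35.8, 36.4, 30.8 and 47.8 FPKM at 24 h, and at 33.4, 30.3, 21.9 and 22.3 FPKM at 8 weeks. Both later groups lay above every before library. It rose by log2 1.37 (SE 0.21, adjusted p = 0.00081) at 24 h and by 0.98 (SE 0.21, adjusted p = 0.0030) at 8 weeks. Irf1, an early factor of the gamma response, had 19.7 ± 5.73 FPKM (SD, n = 5) before TAM, 31.3 ± 4.82 (SD, n = 4) at 24 h and 29.6 ± 1.01 (SD, n = 4) at 8 weeks. Its log2 fold changes of 0.69 (adjusted p = 0.021) and 0.73 (adjusted p = 0.0091) were both called, and the direct difference between 24 h and 8 weeks was 0.03 (SE 0.20, adjusted p = 0.92). Without 24 h replicate 4 the 24 h call of Irf1 was lost (adjusted p = 0.052).

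Stat2 stood at 26.2, 20.4, 13.7, 19.9 and 20.6 FPKM before TAM, at 23.5, 19.7, 20.9 and 33.4 FPKM at 24 h, and at 10.99, 12.2, 13.2 and 13.1 FPKM at 8 weeks. In FPKM all 8-week libraries lay below every other library, before replicate 3 being the nearest. On the scale of normalised counts, not every 8-week library lay below every before library. Stat2 was not called at 24 h (log2 0.32, SE 0.20, adjusted p = 0.32), was lower at 8 weeks than at 24 h (log2 −0.88, SE 0.22, adjusted p = 0.017), and fell against before by log2 −0.56 (SE 0.21, adjusted p = 0.0496). That last call was lost in 9 of 13 fits that left out 1 library, all but those without before replicate 3, 24 h replicate 3 or 4, or 8-week replicate 3 (adjusted p up to 0.12). Irf9, the partner of Stat2 in the type I complex, had 21.9 ± 4.70, 30.0 ± 4.78 and 20.3 ± 3.08 FPKM (SD) and was called in none of the 3 comparisons by edgeR (adjusted p = 0.056 at 24 h, 0.997 at 8 weeks and 0.063 between them).

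Parp9, Parp14 and Dtx3l belong to the ADP-ribosylation machinery, with Parp9 and Dtx3l working as a pair. Their genes lie together on chromosome 16, where Dtx3l (35926515 to 35939027, minus strand) and Parp9 (35938470 to 35972621, plus strand) overlap by 558 bases head to head, and reads from the overlap can be split only by strand. All 3 rose at 24 h (12.6% of all genes) and 1 was called higher at 8 weeks (20.5%). Between 24 h and 8 weeks 0 were called by edgeR (1 at an unadjusted p under 0.05), where 20.8% of all genes were called. Parp9 stood at 11.3, 9.55, 6.84, 11.4 and 11.6 FPKM before TAM, at 16.0, 13.8, 19.7 and 24.7 FPKM at 24 h, and at 15.2, 12.6, 13.05 and 12.5 FPKM at 8 weeks. It rose by log2 0.91 (SE 0.19, adjusted p = 0.0063) at 24 h. Its call at 8 weeks (log2 0.54, SE 0.19, adjusted p = 0.045) was lost in 11 of 13 fits without 1 library, all but those without 24 h replicate 2 or 4 (adjusted p up to 0.115). The 24 h call of Dtx3l (log2 0.80, adjusted p = 0.032) was lost without before replicates 1, 2 or 3 or 24 h replicates 1 or 4 (adjusted p up to 0.091).

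Guanylate-binding proteins are GTPases that attack the membranes around intracellular pathogens. Both members, Gbp2 and Gbp3, rose at 24 h (12.6% of all genes) and neither was called at 8 weeks against before (36.9%). Gbp2 stood at 24.3, 17.9, 10.5, 19.5 and 24.6 FPKM before TAM, at 35.1, 29.5, 54.6 and 44.4 FPKM at 24 h, and at 28.5, 23.1, 20.2 and 21.2 FPKM at 8 weeks. It rose by log2 1.1 (SE 0.23, adjusted p = 0.0053) at 24 h, and its difference between 24 h and 8 weeks (log2 −0.70, SE 0.24) had an adjusted p of 0.057. Gbp3 had 14.2 ± 5.41 FPKM (SD, n = 5) before TAM, 35.6 ± 11.7 (SD, n = 4) at 24 h and 15.3 ± 2.08 (SD, n = 4) at 8 weeks. It rose by log2 1.37 (SE 0.31, adjusted p = 0.0084) and was lower at 8 weeks than at 24 h (log2 −1.12, SE 0.33, adjusted p = 0.032), a call lost without 24 h replicate 4 or any 1 of the 8-week libraries (adjusted p up to 0.075).

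The 3 peptide presentation genes are neighbours in the MHC region of chromosome 17. Of them 2 rose at 24 h (12.6% of all genes) and 2 were higher than before at 8 weeks (20.5%). By edgeR 0 were lower at 8 weeks than at 24 h (10.6% of all genes). Psmb9 and Tap1 start 225 bases apart in opposite directions, and Psmb8 begins 969 bases after the end of Tap1. Psmb8 and Psmb9 are subunits of the immunoproteasome, and Tap1 is part of the pump that moves peptides into the endoplasmic reticulum. Psmb9 (34182099 to 34187330) stood at 20.7, 17.0, 8.16, 13.7 and 20.3 FPKM before TAM, at 25.4, 22.4, 14.4 and 17.8 FPKM at 24 h, and at 33.2, 31.0, 33.3 and 33.6 FPKM at 8 weeks. All 8-week libraries lay above all others. Psmb9 was not called at 24 h (log2 0.36, SE 0.25, adjusted p = 0.36), rose at 8 weeks by log2 1.18 (SE 0.25, adjusted p = 0.0032) and was the 1 member higher at 8 weeks than at 24 h (log2 0.82, SE 0.27, adjusted p = 0.047). That last call was lost in 11 of 13 fits that left out 1 library, all but those without before replicate 3 or 24 h replicate 1 (adjusted p from 0.050 to 0.095).

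Psmb8 stood at 29.0, 26.3, 15.5, 22.8 and 30.2 FPKM before TAM, at 39.7, 34.9, 26.4 and 71.0 FPKM at 24 h, and at 49.6, 53.99, 53.5 and 48.6 FPKM at 8 weeks. It rose at 8 weeks by log2 1.20 (SE 0.28, adjusted p = 0.0051), while its call at 24 h (log2 0.85, SE 0.28, adjusted p = 0.048) was lost in 11 of 13 fits without 1 library, all but those without 24 h replicate 2 or 3 (adjusted p up to 0.17). Tap1 had 12.05 ± 3.63 FPKM (SD, n = 5) before TAM, 22.5 ± 7.31 (SD, n = 4) at 24 h and 14.1 ± 0.835 (SD, n = 4) at 8 weeks, and it rose at 24 h (log2 0.95, SE 0.26, adjusted p = 0.021) but was not called at 8 weeks (log2 0.37, SE 0.26, adjusted p = 0.28). Without 24 h replicate 4 the call of Tap1 was lost (adjusted p = 0.069).

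The RNA sensors and the enzymes that act on double-stranded RNA were mostly lower at 8 weeks than before. Of 7 genes, 1 rose and 1 fell at 24 h (12.6% and 6.63% of all genes). At 8 weeks 0 were higher and 5 lower than before by edgeR (5 at an unadjusted p under 0.05). Over all genes these shares were 20.5% and 16.4%. Against 24 h, 5 were lower at 8 weeks (10.6% of all genes). Zbp1, a sensor of Z-form nucleic acid that can start necroptosis, was the gene that rose at 24 h. It stood at 15.5, 4.58, 3.13, 4.20 and 6.00 FPKM before TAM, at 18.6, 19.1, 8.17 and 38.4 FPKM at 24 h, and at 11.1, 9.28, 9.64 and 7.21 FPKM at 8 weeks. Before replicate 1 lay above 24 h replicate 3, so the groups overlapped. The rise (log2 1.79, SE 0.47, adjusted p = 0.019) was lost without 24 h replicate 4 (adjusted p = 0.059).

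Trim25, the ubiquitin ligase that activates the sensor Ddx58, was at 41.2, 56.0, 46.2, 56.0 and 51.0 FPKM before TAM, at 33.0, 29.7, 24.0 and 43.1 FPKM at 24 h, and at 14.9, 16.5, 17.4 and 17.3 FPKM at 8 weeks. The 8-week libraries lay below all others. Its log2 fold change at 8 weeks was −1.46 (SE 0.19, adjusted p = 0.00012), and between 24 h and 8 weeks it was −0.87 (SE 0.20, adjusted p = 0.013), and both calls held in each alternative fit run. The fall at 24 h (log2 −0.58, SE 0.19, adjusted p = 0.046) was lost in 11 of 13 fits that left out 1 library, all but those without before replicate 1 or 24 h replicate 4 (adjusted p up to 0.12).

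Dhx58, a relative of Ddx58 that tunes sensing, showed the largest fall of the 47 at 8 weeks. It stood at 28.0, 24.2, 12.4, 29.1 and 26.3 FPKM before TAM, at 12.6, 11.6, 5.50 and 19.8 FPKM at 24 h, and at 4.75, 5.73, 4.33 and 5.12 FPKM at 8 weeks. Only 24 h replicate 3 came within the 8-week range. Dhx58 was not called at 24 h (log2 −0.90, SE 0.33, adjusted p = 0.076) and fell at 8 weeks by log2 −2.13 (SE 0.35, adjusted p = 0.00050). From 24 h to 8 weeks it was lower by log2 −1.24 (SE 0.35, adjusted p = 0.027), a call lost without 24 h replicate 4 or any 1 of the 8-week libraries (adjusted p up to 0.065).

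Eif2ak2, the kinase PKR that stops translation on double-stranded RNA, had 10.3 ± 1.52 FPKM (SD, n = 5) before TAM, 10.9 ± 2.13 (SD, n = 4) at 24 h and 5.94 ± 0.755 (SD, n = 4) at 8 weeks. It fell at 8 weeks by log2 −0.65 (SE 0.17, adjusted p = 0.0087) and was not called at 24 h (log2 0.12, SE 0.17, adjusted p = 0.67). Adar, which edits adenosine to inosine in double-stranded RNA and so hides it from sensors, had 13.7 ± 1.87, 14.9 ± 1.29 and 8.83 ± 1.36 FPKM (SD) in the same order. It fell at 8 weeks by log2 −0.49 (SE 0.15, adjusted p = 0.023), which was lost without 8-week replicate 1 or 2 (adjusted p up to 0.071). Ddx58, which encodes the sensor RIG-I and is added here after its values were seen, stood at 20.2, 17.99, 13.3, 20.3 and 20.7 FPKM before TAM, at 19.8, 17.2, 16.9 and 20.6 FPKM at 24 h, and at 9.38, 8.63, 8.74 and 8.64 FPKM at 8 weeks. The 24 h and before libraries overlapped (log2 0.04, SE 0.14, adjusted p = 0.87), and all 8-week libraries lay below them (log2 −0.92, SE 0.14, adjusted p = 0.00038). The sensor of the same family Ifih1, or MDA5, was called in none of the 3 comparisons, with an adjusted p of 0.0505 between 24 h and 8 weeks (log2 −0.68, SE 0.23).

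**Figure D4:**
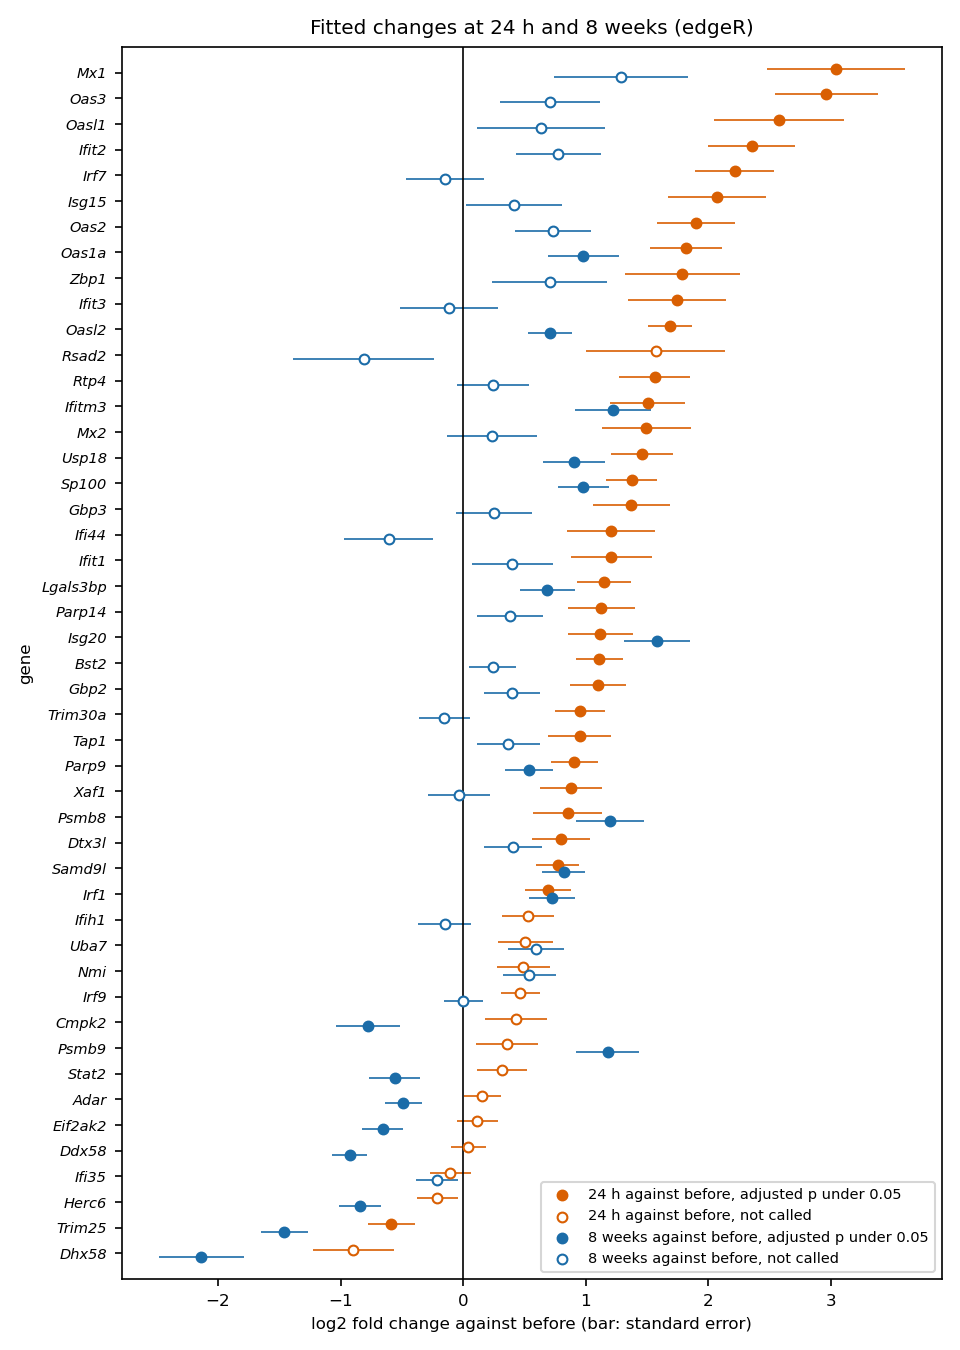
Fitted log2 fold change of each of the 47 genes against before TAM, at 24 h (orange) and at 8 weeks (blue), with bars of 1 standard error and filled points for an adjusted p under 0.05. Both contrasts use the same before libraries. Mx1, Oas3, Oasl1, Ifit2 and Irf7 head the 24 h values, and Dhx58 and Trim25 have the lowest values at 8 weeks.

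The libraries differed in the height of the whole list. The mean of log2(FPKM + 1) over the 47 genes was 3.56 ± 0.34 (SD, n = 5) before TAM, 4.44 ± 0.34 (SD, n = 4) at 24 h and 3.65 ± 0.10 (SD, n = 4) at 8 weeks. Relative to the before mean, the before libraries stood at 0.34, −0.05, −0.54, 0.09 and 0.17, the 24 h libraries at 0.87, 0.73, 0.57 and 1.35, and the 8-week libraries at 0.17, 0.19, 0.00 and 0.01. All 24 h libraries lay above all others. Before replicate 3 was the lowest of its group in 43 of the 47 genes, and without it the 8-week mean lay below the before mean (difference −0.04, against 0.09 with it). The labels give no batch or date, and correlations between libraries of a group on the log scale ran from 0.95 to 0.99 before TAM, from 0.84 to 0.98 at 24 h and from 0.93 to 0.97 at 8 weeks.

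Among the other genes of the pathway, 15 interferon genes (Ifnb1, Ifng and relatives) were looked for in the transcripts shared by all groups. None was found there, and transcripts listed for only some of the groups were not searched. The tables hold only transcripts above a minimum of reads. Of 5 receptor chains tested, 3 rose at 24 h (12.6% of all genes rose), and at 8 weeks 3 were higher and 1 lower (20.5% and 16.4% of all genes). Ifngr2, a chain of the interferon gamma receptor, had 20.4 ± 2.67 FPKM (SD, n = 5) before TAM, 41.4 ± 7.40 (SD, n = 4) at 24 h and 34.3 ± 5.37 (SD, n = 4) at 8 weeks, rising by log2 1.05 (adjusted p = 0.00084) and 0.88 (adjusted p = 0.0011). Ifngr1, its partner, had 27.1 ± 1.39, 40.6 ± 8.57 and 51.3 ± 6.06 FPKM (SD), with log2 0.62 (adjusted p = 0.012) and 1.05 (adjusted p = 0.00021). Stat3 and Jak2, which carry signals of these and other cytokine receptors, were not called at 24 h, with log2 fold changes of 0.53 and 0.37 (adjusted p = 0.18 and 0.19).

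Of 14 sensing adaptors and kinases, 6 rose at 24 h and 0 fell by edgeR (12.6% and 6.63% of all genes, and 8 of the 14 at an unadjusted p under 0.05 in either direction). At 8 weeks 6 were higher and 1 lower than before (20.5% and 16.4% of all genes). Tlr7, the endosomal receptor of single-stranded RNA, had 2.18 ± 0.308 FPKM (SD, n = 5) before TAM, 10.4 ± 2.53 (SD, n = 4) at 24 h and 6.52 ± 1.08 (SD, n = 4) at 8 weeks, a log2 fold change of 2.28 (adjusted p = 0.00011) and then 1.72 (adjusted p = 8.7e-05). Tlr9, the receptor of CpG DNA, rose by log2 2.13 (adjusted p = 0.00074) and 1.43 (adjusted p = 0.0039). Tlr3, the endosomal receptor of double-stranded RNA, was called at neither time (adjusted p = 0.44 and 0.21). Among the genes of cytosolic DNA sensing, the adaptor Tmem173, or STING, rose at both times (adjusted p = 0.00105 and 7.3e-05) and Mb21d1, or cGAS, rose at 24 h (adjusted p = 0.025) and was not called at 8 weeks (adjusted p = 0.29).

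Of 9 negative regulators 3 rose at 24 h (12.6% of all genes), led by Samhd1, which degrades deoxynucleotides (12.5 ± 1.5 FPKM before TAM, n = 5, and 28.6 ± 3.81 at 24 h, n = 4, SD), and by the phosphatase Ptpn6 (log2 1.86, adjusted p = 0.00023). At 8 weeks 2 of the 9 were higher and 1 lower, shares near those of all genes (20.5% and 16.4%). Of 20 interferon gamma GTPases and presentation genes, 10 rose at 24 h and 10 at 8 weeks (12.6% and 20.5% of all genes), with 2 lower at 8 weeks than at 24 h (10.6% of all genes). Ifi47, a GTPase of this group, rose by log2 2.40 (adjusted p = 0.00059) and 1.68 (adjusted p = 0.0022), and Tgtp1 by log2 2.03 (adjusted p = 0.0021) and 1.1 (adjusted p = 0.029). Of 32 other genes known as type I induced, 15 rose and 2 fell at 24 h, 14 rose and 1 fell at 8 weeks, and 4 were lower at 8 weeks than at 24 h. Over all genes these shares were 12.6% and 6.63%, 20.5% and 16.4%, and 10.6%, so the shares lower at 8 weeks than at 24 h in both lists were near that of all genes. Ifi204, a DNA sensor, rose by log2 2.59 and 1.55, and Phf11d by 2.01 and 1.26 (adjusted p = 0.00035 for each at 24 h, and 0.0027 and 0.0022 at 8 weeks).

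Macrophage markers were higher at both later times, and the other immune lists were not uniform. Over all genes, 12.6% were higher and 6.63% lower at 24 h than before. At 8 weeks these shares were 20.5% and 16.4%. Of 14 macrophage markers tested (Adgre1 is not analysed here), 12 were higher at 24 h and 13 at 8 weeks than before, with summed levels of 439 to 1148 FPKM before TAM, 2477 to 4362 at 24 h and 5339 to 10294 at 8 weeks. Lyz2 and Ctss carried most of these sums, with means of 1496 and 804 FPKM at 24 h and 4506 and 1892 FPKM at 8 weeks, and both were higher at 8 weeks than at 24 h (adjusted p = 0.019 and 0.021). Without them the sums were 222 to 402 FPKM before TAM, 689 to 1579 at 24 h and 1149 to 1641 at 8 weeks, so the later groups overlapped. Of the 14, 7 had lower means at 8 weeks than at 24 h (Csf1r, Fcgr1, Aif1, C1qa, C1qb, C1qc and Mrc1), and of these Fcgr1, an Fc receptor, was called (log2 −1.15, adjusted p = 0.019).

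Of 12 lymphocyte markers, 3 were higher at 24 h and 12 at 8 weeks, with sums of 7.07 to 21.2, 24.1 to 41.7 and 38.0 to 146.8 FPKM. Without before replicate 1, 6 were higher at 24 h, and without any other 1 library 2 were, except 24 h replicate 3 (3). Neutrophil markers had 1 of 4 higher at 24 h and 4 of 4 at 8 weeks, and 1 library carried the later count. Their sum was 1829 FPKM in 8-week replicate 1 against 28.9, 26.2 and 13.4 FPKM in the other 8-week libraries, 8.97 to 39.9 FPKM at 24 h and 1.57 to 61.3 FPKM before TAM. Without 8-week replicate 1, 1 of 4 was higher at 8 weeks, and without before replicate 1, 3, 4 or 5 or 24 h replicate 1 or 2 the count was 2. Natural killer cell markers had 0 and 1 of 5 higher (edgeR, 0 and 1 at an unadjusted p under 0.05), and endothelial markers 1 and 0 of 8, with 1 lower at 8 weeks. Of 6 markers of plasmacytoid dendritic cells, which make much type I interferon, Siglech alone was among the transcripts shared by all groups. It stood at 0.0415 to 1.26 FPKM in all libraries and was not called.

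Adrenal cortex markers went the other way, with 2 of 8 lower at 24 h and 5 of 8 at 8 weeks, and sums of 18456 to 24517 FPKM before TAM, 4355 to 19037 at 24 h and 1553 to 3740 at 8 weeks. Without 8-week replicate 1, 3 or 4 the number lower at 8 weeks was 3 and without 24 h replicate 3 it was 8, and the number at 24 h was 1 without any 1 of the before libraries or 24 h replicate 1 or 4. Medulla markers had 0 of 8 called at either time by edgeR (0 and 0 at an unadjusted p under 0.05), with sums of 1180 to 5181, 19.4 to 4116 and 5168 to 7661 FPKM. Fat markers had 0 and 3 of 8 higher, with sums of 185 to 1845, 50.9 to 4372 and 7680 to 15598 FPKM. The defining markers of adrenal gland were present in every group, but medulla markers were low in 24 h replicates 3 and 4, and 24 h replicate 3 nearly lacked several cortex markers. In that library Cyp11b1 and Cyp21a1, enzymes of corticosteroid synthesis, stood at 1.07 and 2.42 FPKM and Mc2r, the ACTH receptor, at 0.132 FPKM. In the other 24 h libraries they stood at 969 to 1990, 1391 to 4764 and 109 to 187 FPKM, and the cortex sum of replicate 3 rested mainly on Hsd3b1 (3024 FPKM) and Cyp11a1 (983 FPKM). The part of these cell type shifts in the values of the 47 genes was not tested.

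**Figure D5:**
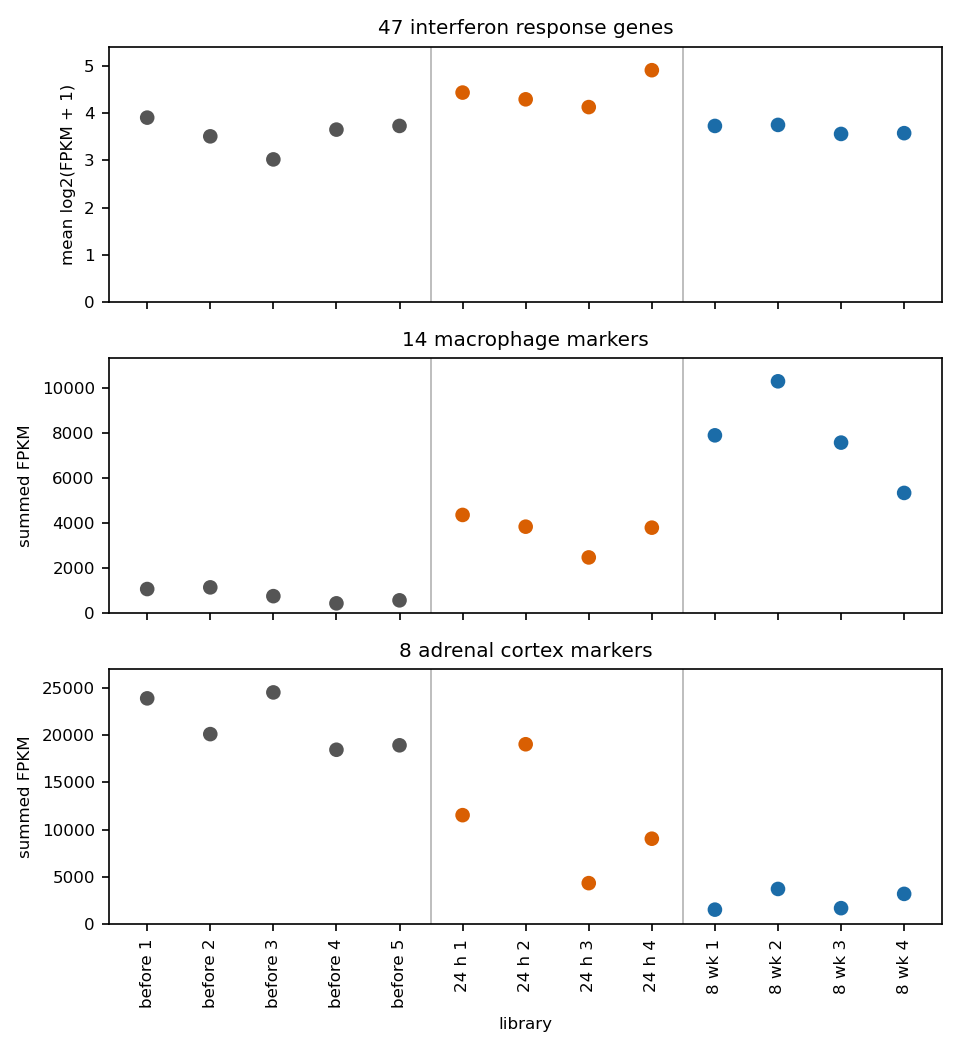
Mean log2(FPKM + 1) of the 47 interferon response genes (top), and summed FPKM of 14 macrophage markers (middle) and 8 adrenal cortex markers (bottom), with 1 point per library on the horizontal axis. All axes start at 0. The interferon list peaks in the 24 h libraries, macrophage sums, most of which are Lyz2 and Ctss, are highest in the 8-week libraries at 5339 to 10294 FPKM, and cortex sums are lowest there at 1553 to 3740 FPKM.

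Several members were listed as more than 1 transcript model, between which reads were divided by estimate. The Irf7 models NM_016850 and NM_001252601 share a start, had 9.96 ± 2.94 and 6.05 ± 1.58 FPKM before TAM (SD, n = 5), 38.4 ± 11.9 and 29.3 ± 17.4 at 24 h (SD, n = 4), and 9.44 ± 0.981 and 3.26 ± 1.41 at 8 weeks (SD, n = 4). Both were high at 24 h. The Adar model NM_001038587, which starts upstream at 89715022 on chromosome 3, had 3.84 ± 1.52, 2.44 ± 0.296 and 1.08 ± 1.05 FPKM (SD), and NM_019655, which starts at 89730718, had 8.33 ± 1.49, 7.50 ± 1.08 and 5.52 ± 0.307 FPKM (SD). Both had their lowest mean at 8 weeks. Zbp1 was split between NM_021394 (2.26, 8.22 and 3.70 FPKM) and the shorter NM_001139519 (4.42, 12.9 and 5.60 FPKM), and in 24 h replicate 4 the shorter model held 30.0 FPKM against 8.44 FPKM. A second Mx1 model was listed with the 24 h libraries alone and a second Tap1 model with the other groups alone, and neither enters the sums. At 24 h the Mx1 model left out had a mean of 0.98 FPKM, beside 3.53 FPKM for the model kept.

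The 47 genes lie on 16 chromosomes, and 19 of them have another member within 100 kb. Close neighbours did not always share their calls. Ifit2 and Ifit3, 6994 bases apart on chromosome 19, both rose at 24 h, and so did Oasl2 and Oasl1, 10994 bases apart on chromosome 5. Rsad2 and Cmpk2, 12762 bases apart on chromosome 12 and facing away from each other, were both not called at 24 h and both lower at 8 weeks than at 24 h (log2 −2.38 and −1.20). The call of Rsad2 was lost without 24 h replicate 4 (adjusted p = 0.054) or 8-week replicate 1 (0.053). With the 2 groups fitted alone (0.065) or with the replicate block (0.083) it was lost too. Against before at 8 weeks, Cmpk2 was lower (log2 −0.78, SE 0.26, adjusted p = 0.033) and Rsad2 was not called (adjusted p = 0.29). That call of Cmpk2 was lost in 5 of 13 fits that left out 1 library (adjusted p up to 0.088). Tap1 and Psmb9, which share the 225 bases between their starts, were called against before at different times, Tap1 at 24 h and Psmb9 at 8 weeks, and the difference between the genes was not tested.

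The authors' deposited table compares 8 weeks with before for 62 models of the members. With a q-value under 0.05, the authors' deposited table has 12 models above and 8 below the before level. The share of all models under that threshold was not worked out, so these counts have no background beside them. Trim25 has a log2 ratio of −1.59 there (q = 0.00028), Dhx58 −2.22 (q = 0.0014) and Isg20 1.47 (q = 0.00052) in the authors' deposited table. The same 8 genes were lower there and in the fit of all libraries, and 9 of 12 higher genes were shared. Both comparisons rest on the same before and 8-week libraries, so the overlap is not independent support. Oasl2, Usp18 and Parp9, higher at 8 weeks in the fit, have q-values of 0.065, 0.065 and 0.096 in the authors' deposited table. Ifit2 (q = 0.046), 1 model of Irf9 (q = 0.040) and 1 model of Gbp3 (q = 0.019) are higher in the authors' deposited table and were not called in the fit.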

How the data were processed

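Per the labels' protocols, the adrenal RNA went through a stranded mRNA kit. Per the submitters' processing notes, the tools were TopHat2 2.0.14 and bcl2fastq 2.17, and the genome was GRCm38 (mm10). The counter and its strand setting are not given in the sources used here. Per the file headers, the authors deposited FPKM and an expected count per library and RefSeq transcript, and their own comparison of 8 weeks with before (p-value, q-value and log2 ratio). Whole numbers, within 1e-06, made up 43.3% to 46.4% of each library's deposited counts. Expected counts of the 18738 transcripts shared by the tables were summed per gene, rounded and tested with edgeR 4.0.16 (R 4.3.3), using TMM scaling, filterByExpr (which removed no gene) and all 13 libraries in 1 fit without a block. The procedure was tested on simulated data in which every group had the levels and spread of the before libraries. The wider spread of the 24 h libraries was therefore not covered. Alternatives used DESeq2 1.42.0, limma 3.58.1 and libraries left out in turn, the last chosen for the marker lists after seeing the data. Per role, genes with values in full were the one with the smallest p at 24 h and others called at 8 weeks against either group, at most 5, and 2 genes per pathway list. A further gene that the rule names is not reported here. Members and lists were chosen with earlier results of these data known.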

Additional observations from a re-analysis of the deposited data

Results flagged for a closer look

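The highest or lowest library of each group was compared with the others of its group, as its gap divided by the range, for the level of each member and for the mean over members, 144 groups in all, and 10 libraries' values stood apart at a level that chance reaches in about 1 of 20 groups. Before TAM, replicate 1 stood above the other libraries for Zbp1 (15.5 FPKM, others 3.13 to 6.00) and Oas2 (4.55 FPKM, others 1.49 to 2.32). Replicate 3 stood below them for Adar (10.3 FPKM, others 14.3 to 14.7), Oasl2 (8.97 FPKM, others 14.7 to 17.0) and Uba7 (3.95 FPKM, others 7.69 to 9.07). At 24 h, replicate 4 stood above the others for Ifit3 (141.9 FPKM, others 50.7 to 65.1), Ifitm3 (575 FPKM, others 209 to 229) and Xaf1 (20.9 FPKM, others 12.2 to 12.7). At 8 weeks, replicate 1 stood above the others for Ddx58 (9.38 FPKM, others 8.63 to 8.74) and Herc6 (5.27 FPKM, others 4.38 to 4.45).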

How the results depend on the processing

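Of 79 calls of single members, followed through 1679 alternative values, 1502 kept their side of the threshold, 177 did not and 0 turned. The alternatives include a fit without the count filter. That filter removed no gene, so this fit repeats the main one and its values, all counted as kept, could not differ. The calls that held in every alternative numbered 21 of 33 at 24 h against before, 14 of 20 at 8 weeks against before and 12 of 26 at 8 weeks against 24 h. At 24 h, 2 members were lower without scaling, with DESeq2, with limma's quality weights and without 24 h libraries 3 and 4, and 0 with the replicate block or only the groups compared. At 8 weeks against 24 h, 0 members were higher without scaling, with quality weights, with the replicate block, with only the groups compared and without 24 h libraries 3 and 4. Over all genes, quality weights gave 2849 higher and 2529 lower at 24 h, 4344 and 3757 at 8 weeks, and 2160 higher at 8 weeks against 24 h. The replicate block gave 880 and 432 at 24 h and 934 and 727 at 8 weeks against 24 h, and with only the groups compared the latter were 460 and 513. At 8 weeks, 3602 genes were lower with only the groups compared, 3851 with all transcripts of both tables and 3715 without 24 h libraries 3 and 4. Without scaling the split at 8 weeks was 2424 higher and 3054 lower, and 1181 and 2093 against 24 h, as the median of all genes went from 0.03 to −0.10 and from −0.03 to −0.12 on the log2 scale. The cause of these shifts was not tested. With the replicate block, members were 25 higher and 0 lower at 24 h, 10 and 6 at 8 weeks, and 0 and 20 at 8 weeks against 24 h. In that fit the shares of all genes were 6.25% and 3.07%, 15.5% and 11.8%, and 6.63% and 5.16%. The replicate numbers share only a name, since correlations of same-numbered libraries ran from −0.125 to 0.277.

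Leaving out 1 library at a time gave 24 to 34 members higher and 0 to 2 lower at 24 h, 9 to 14 higher and 5 to 8 lower at 8 weeks, and 0 to 1 higher and 17 to 31 lower at 8 weeks against 24 h. The medians ran from 0.83 to 1.16, from 0.25 to 0.50 and from −0.92 to −0.67. All genes numbered 1245 to 2341 higher and 606 to 1657 lower at 24 h, 2298 to 3416 and 1727 to 3290 at 8 weeks, and 953 to 1805 and 829 to 2495 at 8 weeks against 24 h. The mean score differed from before by 0.72 to 0.98 at 24 h and by −0.04 to 0.18 at 8 weeks, turning to −0.0447 without before replicate 3. The number with an 8-week mean between before and 24 h was 23 to 27. Depth limits low genes such as Mx1 and Oas3, which stood below 1 FPKM before TAM.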
